A study of Drosophila melanogaster with 16 samples.

Results

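The 8 genes rho, ru, stet, spi, vn, grk, Egfr and aos of the EGF receptor pathway of Drosophila melanogaster were located in a RefSeq gene annotation of the dm6 assembly, where each symbol matched 1 of 13922 protein-coding genes on the arms used here (X, 2L, 2R, 3L, 3R and 4). They were listed by name, with earlier results of these data known. Chromatin contacts had been mapped by Micro-C, which digests crosslinked chromatin to nucleosomes with micrococcal nuclease and joins those that lie close together. The values below come from the line yw, whose genotype is given as WT and which has 2 of the 16 samples, as pooled hand-sorted embryos of nuclear cycle 14 (nc14, when the blastoderm cellularises) from collections of 45 min aged for 2 h. The other 14 samples carry 8 edited genotypes and were not analysed here. The lists are of whole embryos, so all cell types of the blastoderm are averaged.

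The pathway works by release of a ligand. Spitz (spi) and Gurken (grk) are made as membrane-bound precursors of the transforming growth factor alpha type, and rhomboid proteases in the secretory pathway cut them so that they can leave the cell. The ligand then binds the receptor Egfr, a tyrosine kinase, and Ras and the MAP kinase cascade carry the signal to the nucleus, while Argos (aos), itself a target of the signal, is secreted and sequesters Spitz. In the blastoderm, rho is transcribed in lateral stripes of the future neurogenic ectoderm, so that a restricted protease sets where a broadly made ligand becomes active.

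For each gene, the loops with an anchor in or within 50 kb of it and the nearest boundary on each side were read from the control lists, which hold 313 loops and 1930 boundaries on these arms. A loop is a pair of anchors called by the loop caller SIP, with a loop value, and a boundary is a bin of 400 bp with a strength. Both are scores as deposited by the authors, and their scale is not stated. The median loop value was 7.75 and the median boundary strength 1.64. Each feature has 1 value with no replicate, so no test between embryos could be made, the depth is unknown, and a place without a listed feature may still hold one below the callers' limits. All positions are 1-based. Left and right mean lower and higher coordinates, since transcription starts were not placed.

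The 3 protease genes lay together near the left end of 3L. The gene rho (1463811 to 1468944), the founding member of the rhomboid family, and roughoid (ru, 1370628 to 1387437), which acts with rho in the eye, both lay inside Ptp61F, a gene of a non-receptor protein tyrosine phosphatase that runs from 1342493 to 1475257. The gene stem cell tumor (stet, 1475438 to 1489547), the protease of the germ line, began 180 bp beyond the right end of Ptp61F. Between ru and rho lay 76.4 kb, and between rho and stet 6.49 kb with the gene Naa30B.

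The only loop within 50 kb of any of the 8 genes was at this locus. It joined an anchor at 1366401 to 1366800 with an anchor at 1463601 to 1464000, over 97.2 kb. The right anchor covered the left end of rho, with 190 bp of the anchor inside the gene and 210 bp outside it. The next gene end to this anchor was that of lncRNA:CR44842, a long non-coding RNA gene, 799 bp away. The left anchor lay inside Ptp61F, 23907 bp from its left end. The gene end nearest to it, of any gene type in the annotation, was the left end of ru, 3827 bp away, and the next were those of the tRNA genes tRNA:Glu-CTC-3-1 and tRNA:Glu-CTC-3-2, at 13133 and 13437 bp. The loop thus ran from sequence beside ru to the end of rho, with ru between the anchors, rho at an anchor and stet outside, 11.4 kb beyond the right anchor. The genes CG32320, CG9168, FucTD, CG9173 and SA2 also lay wholly between the anchors.

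**Figure D1:**
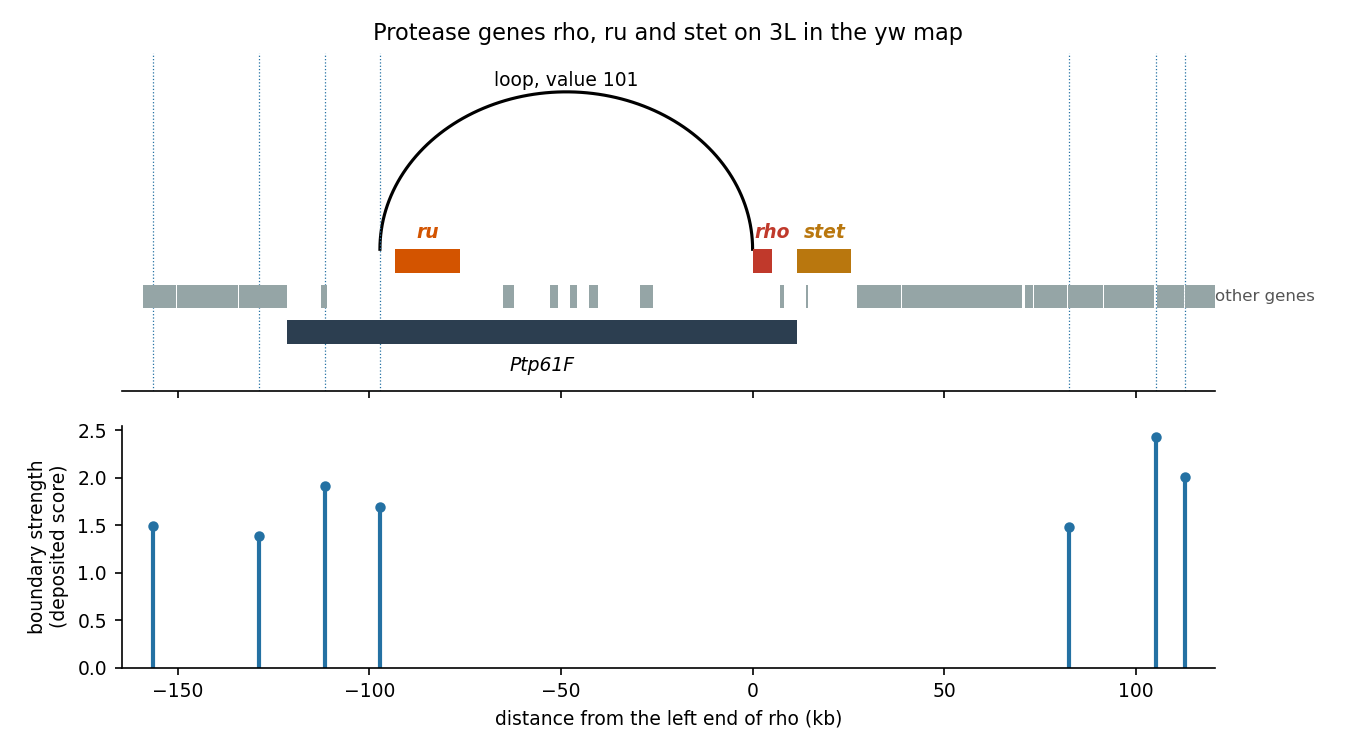
Map of the protease genes on 3L, with distance from the left end of rho in kb on the x axis. The upper panel shows genes as bars (rho, ru and stet in colour, Ptp61F in dark, others in grey) and the loop of value 101 as an arc that starts 3827 bp left of ru and ends at the left end of rho. The lower panel shows each boundary's deposited strength (y axis, no stated unit), with none between the left anchor, at a boundary of strength 1.69, and the boundary of strength 1.47 beyond stet.

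The loop value was 101, which is 13.0 times the median and rank 8 of the 313 loops, and rank 2 of the 48 loops on 3L. By other columns of the loop table it ranked 20 (APScoreAvg, 21.0) and 18 (RegAPScoreAvg, 7.42). Loop value tended to be higher in longer loops (Spearman's rho of 0.39 over the 313 loops, which share 1 map), and this loop was 2.96 times as long as the median loop of 32.8 kb. Of the 21 loops at least as long, 3 others had a value at least as high, and the 21 had a median value of 60.4 and a lowest value of 10.7. The next loops on the arm were 188.8 kb to the left, at bab2, with a value of 68.6, and 1141.6 kb to the right, inside Pxn, with a value of 4.64.

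**Figure D2:**
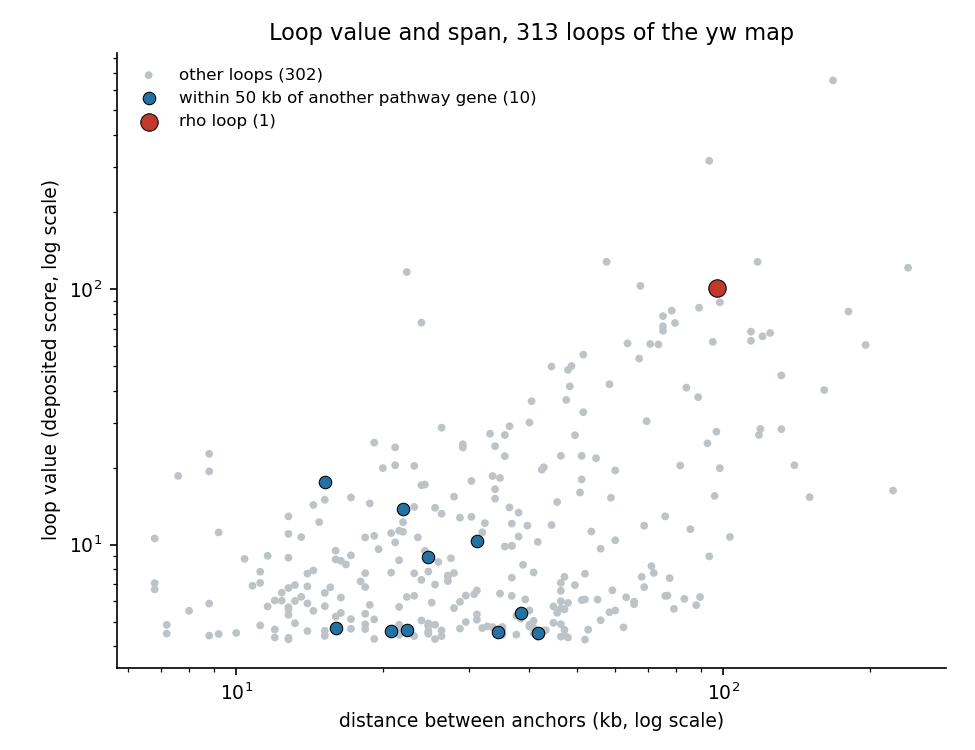
Loop value (y axis, deposited score, log scale) against the distance between anchors in kb (x axis, log scale) for the 313 loops of the yw list. The rho loop, in red, lies at 97.2 kb and a value of 101, and the 10 loops within 50 kb of another pathway gene, in blue, lie between 15.2 and 41.6 kb with values from 4.50 to 17.6.

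The left anchor was also a boundary. Its bin at 1366401 was in the boundary list with a strength of 1.69, rank 886 of 1930, so that 54.1% of boundaries were weaker. Of all 614 anchor intervals, 21 (3.42%) overlapped a boundary bin, and 22 of the 313 loops (7.03%) had such an anchor. Both anchors lay in the body of the same gene, Ptp61F, as in 84 of the 313 loops (26.8%). No boundary lay between the anchors, as in most loops, since only 7.67% of loops had at least 1 there. The next boundary to the right was at 1546001, with a strength of 1.47 (rank 1323), 77.1 kb from rho and 56.5 kb from stet, at an end of Pcyt1, a gene of phospholipid synthesis. The interval between these boundaries was 179.2 kb long and held ru, rho and stet with 16 other protein-coding genes. It ranked 197 of 1895 intervals between neighbouring boundaries by size. Counted by gene, 66.8% of protein-coding genes with a boundary on each side stood in a smaller interval. The 3 protease genes thus shared 1 interval, and the part to the right of the loop, from rho to Pcyt1, was 82.0 kb long and held stet.

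No loop had rho at 1 anchor and ru or stet at the other when each anchor had to be in or within 1 kb of the gene. With 5 kb allowed, the loop counted as rho with ru, since the left anchor was 3827 bp from ru. With 20 kb it also counted as ru with stet. The 4 other rhomboid-family genes lie elsewhere in the genome (rho-4 on X, rho-5 and rho-6 on 2L and rho-7 on 2R), and none of them was at a loop anchor. The gene nearest to one was rho-4, a further protease of the secretory pathway, 22.9 kb from a loop inside Ptp10D with 2 boundaries between.

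Over the 8 genes, the 3 proteases had an anchor in or within 50 kb (3 of 8), where 25.9% of all protein-coding genes had one. All 3 owe this to the same loop, so the count stands for 1 place in the genome. The distances were 0 for rho, 3.83 kb for ru and 11.4 kb for stet. Just outside the window were spi, at 55.5 kb, and grk, at 58.4 kb, and with 100 kb allowed 5 of 8 were counted, against 42.2% of all genes. The remaining genes were far from any anchor, vn at 506.7 kb, Egfr at 560.8 kb and aos at 740.8 kb, and 90.0%, 92.1% and 96.0% of all genes lay nearer to one. The median over the 8 was 56.9 kb, but 282.6 kb over the 6 places that remain when the protease locus is counted once, and over all genes it was 129.5 kb. The 282.6 kb falls in the gap between grk and vn. With the locus counted once, rho, spi and grk were nearer to an anchor than the median gene, and vn, Egfr and aos were farther. The gene rho alone had an anchor within 1 kb of a gene end (1 of 8, against 2.15% of all genes) and alone overlapped one (1 of 8, against 2.00%), although the anchor did not lie wholly inside the gene.

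**Figure D3:**
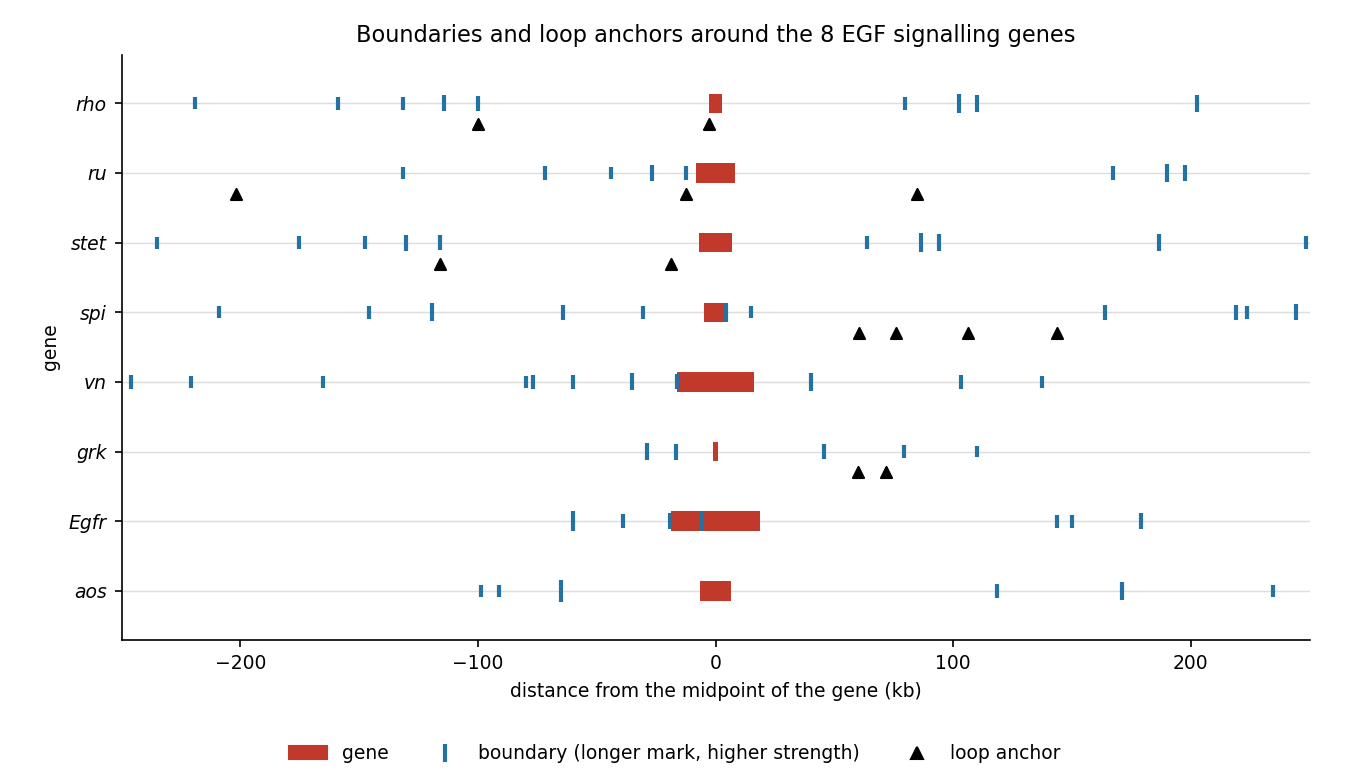
Boundaries (blue marks, longer for higher strength) and loop anchors (triangles) around each of the 8 genes (red bars), with distance from the midpoint of the gene in kb on the x axis and 1 row per gene. The rows of rho, ru and stet show the same locus from 3 places, and vn, Egfr and aos have no anchor within the distance drawn.

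Of the ligand genes, none had a loop, and spi and vn had a boundary at a gene end. The gene spi (2L, 19567900 to 19577315), which codes for the main ligand of the embryo, had a boundary of strength 2.41 (rank 232) inside the gene, 114 bp from its right end. The nearest boundaries outside the gene were weaker. The left one was at 19542001, with a strength of 1.46, 67 bp from ref(2)P, a gene of selective autophagy, and 25.5 kb from spi. The right one was at 19587201, inside the receptor phosphatase gene Lar and 9.89 kb from spi, with a strength of 1.251 and rank 1929 of 1930. The interval was 44.8 kb, but 227.6 kb when only boundaries of at least the median strength were used. The loops nearest to spi, with values of 5.42 and 7.49, had both anchors inside Lar, beyond that boundary.

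The gene vn (3L, 5813338 to 5845664) codes for Vein, a secreted neuregulin-like ligand that needs no rhomboid protease. A boundary bin at 5813201 covered its left end, with a strength of 1.76 (rank 770). Stronger boundaries stood on both sides, at 5794001 (strength 2.11, 18.9 kb away, at the ends of Bre1 and Tektin-C) and at 5869601 (strength 2.23, 23.9 kb away and 1500 bp from CG5568). The interval of 75.2 kb held the kinase gene S6k, CG42272, kri, mad2 and Tektin-C besides vn. All 3 boundaries were above the median strength, so this interval kept its size with the weaker boundaries left out.

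The gene grk (2L, 8431086 to 8433598) codes for the ligand of the oocyte, which sets the axes of the egg. It had no boundary inside it or within 1 kb. The nearest on the left was at 8415601 (strength 1.94, in Akap200 and 15.1 kb away). The nearest on the right was at 8478001 (strength 1.72, in dachs and CheA29a and 44.4 kb away). The interval of 62.0 kb between them held 7 other genes wholly, among them Chrac-14 and mus201. Akap200 (8415690 to 8431297) is not among the 7, since it overlapped the left boundary, and it also overlapped the left end of grk. The loop nearest to grk lay inside Dh31, a neuropeptide gene, with a value of 4.66, and a boundary stood between it and grk.

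The receptor gene Egfr (2R, 21522420 to 21559977) had a boundary at its left end and another inside it. The first, at 21522001, ended 19 bp before the gene, with a strength of 1.84 (rank 655), and was 152 bp from the next gene, CG30289. The second, at 21535201, lay 12780 bp into the gene, with a strength of 2.59 (rank 168), so that 91.3% of boundaries were weaker. To the right, the next boundary was 124.8 kb away at 21684801 (strength 1.51), inside stum and 82 bp from eIF3k, a translation factor gene. Egfr and 30 other genes lay in the 162.4 kb between the nearest boundaries wholly outside the gene. Of these, PTP-ER codes for a phosphatase that acts on the MAP kinase of the pathway, and was picked out after the list of genes was seen. Taken from the boundary inside Egfr, the interval that holds the gene's midpoint was 149.2 kb.

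The inhibitor gene aos (3L, 16470386 to 16483650), which lies inside CG33158, had the widest interval of the 8, at 182.8 kb, and no boundary within 50 kb. Its left boundary, at 16412001 between fax and Serinc and 58.0 kb away, had a strength of 2.94 and rank 103, the highest among the flanking boundaries of the 8 genes. The right one, at 16595201 by Apl and spd-2, was 111.6 kb away with a strength of 1.62. The interval held 22 other genes, among them the sex determination gene tra and the eye pigment transporter gene st.

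In 3 of the 8 genes, spi, vn and Egfr, a gene end had a boundary within 1 kb, against 18.2% of all protein-coding genes, and the same 3 had a boundary overlapping the gene, against 10.3%. Counting boundaries of at least the median strength alone, the same 3 of 8 remained at a gene end, against 8.17% of all genes, and the same 3 overlapping the gene, against 4.45%. With the gene end required to lie inside the boundary bin, 1 of 8 was left, vn. The share of all genes under that rule is not given here. The 8 genes had a median length of 13.7 kb against 2.16 kb over all genes, and the part of length in these counts was not tested. The 3 proteases, grk and aos had no boundary within 1 kb of a gene end. By interval, the ligand genes stood between 44.8 and 75.2 kb, and the proteases, Egfr and aos between 162.4 and 182.8 kb. These are 3 intervals against 3, since the proteases share 1, and the separation was lost when only boundaries of at least the median strength were used, with spi at 227.6 kb, the proteases at 202.0 kb and Egfr at 197.6 kb. The median over the 8 genes was 170.8 kb, and 118.8 kb with the shared interval counted once. Over all genes it was 119.6 kb, with quartiles of 59.2 and 221.7 kb. The 12 different flanking boundaries had a median strength of 1.71, and 10 of them lay at most 1 kb from a protein-coding gene's end, as did 72.9% of all boundaries. The exceptions were the right boundary of vn and the boundary at the left anchor of the rho loop.

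**Figure D4:**
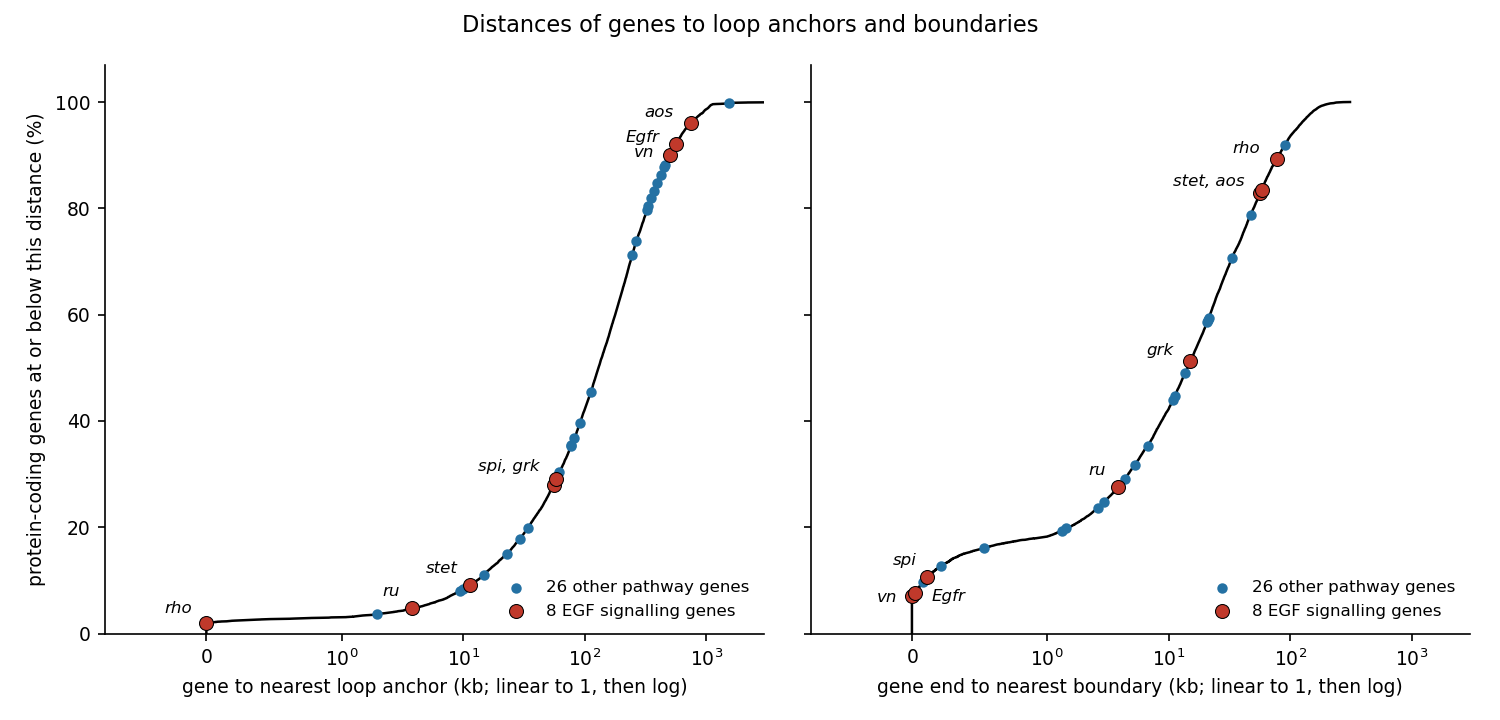
Share of the 13922 protein-coding genes (y axis, %) at or below a distance in kb (x axis, linear to 1 kb and then log) from gene to nearest loop anchor (left) and from gene end to nearest boundary (right). Red points are the 8 genes and blue points the 26 other pathway genes, placed on the curve of all genes. On the left, rho, ru and stet lie lowest of the 8 and aos highest, and on the right vn, Egfr and spi lie lowest and rho highest.

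Of 26 further genes of the pathway, 9 (rho-4, drk, csw, dos, RasGAP1, Raf, Dsor1, aop and kek1) had an anchor in or within 50 kb, against the 25.9% of all genes. The 10 loops concerned had values from 4.50 to 17.6 with a median of 5.04. With weaker loops left out, below the median value, the count was 4 of 26 (rho-4, csw, Dsor1 and kek1), against 12.2% of all genes. Most of their anchors lay in or nearer to other genes. The loop near csw, a phosphatase gene that acts downstream of the receptor, starts 609 bp from the Polycomb gene ph-p (value 17.6). The loop near Dsor1, the MAP kinase kinase gene, starts 248 bp from lz (value 13.8) with a boundary between. The loop near dos, an adaptor gene, lies inside Pxn (value 4.64), the loop near RasGAP1, whose product switches Ras off, runs from Ciz1 to Taf2 (value 4.71), and that near aop, which codes for the repressor Yan, has its near anchor 108 bp from CG4259 (value 4.50). The loop around the adaptor gene drk ran from cbc to mars (value 4.59) and passed over both boundaries at the ends of drk.

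Of the 26 genes, kek1 and Raf alone had an anchor at a gene end or inside the gene. The gene kek1, a feedback inhibitor that binds the receptor, had an anchor 13 bp beyond its right end at 12822801 on 2L. The partner lay 31.2 kb away, outside any protein-coding gene, and the loop value was 10.3, rank 127. It was the only one of the 26 with an anchor within 1 kb of a gene end (2.15% of all genes). The kinase gene Raf on X held both anchors of a loop of 34.4 kb inside its body of 48.4 kb, with a value of 4.55 and rank 289. Raf alone of the 26 overlapped an anchor (1 of 26, against 2.00% of all genes). The median length over all genes was 2.16 kb, and the part of length here was not tested.

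Boundaries also lay at the ends of some of the 26 further genes. Of the 26 genes, 10 had an end with a boundary within 1 kb, against 18.2% of all genes, and 7 of the 10 were among the 12 genes from adaptor to kinase. These were drk, with a boundary at each end (strengths 1.45 and 1.53), csw (1.59), the Ras exchange factor gene Sos (1.34), RasGAP1 (1.73), the scaffold gene cnk (1.38), Raf (1.47) and the MAP kinase gene rl (1.31). The others were Star (S, 2.37), whose product carries Spitz to the protease, the mitochondrial rhomboid gene rho-7 (1.41) and the ubiquitin ligase gene Cbl (1.51). The nuclear effectors pnt, aop, cic and edl had 0 of 4. Most of these boundaries were weak. Of the 10, only S and RasGAP1 had one of at least the median strength, 2 of 26 against 8.17% of all genes, whereas spi, vn and Egfr all did. The 26 genes had a median length of 6.11 kb against 2.16 kb over all genes, and the part of length in these counts was not tested.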

How the data were processed

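Members and lists were chosen with earlier results of these data known. The submitters' processing notes name BWA 0.7.17 and the build dm6. How the lists were then made, and from which of the 2 yw samples, is not given in the sources used here. Boundary strength and loop values are scores deposited by the authors, and the table also has a probability of enrichment, a fraction deposited by the authors that was not used for results. Of 2034 boundary entries, 14 repeats were removed, and those on Y were left out. Genes came from a RefSeq table of the Release 6 assembly, without strand or exons. Distances run between nearest edges, a boundary flanks a gene when it lies wholly beside it, and overlap means at least 1 bp. Distances were computed with Python 3.11.15, pandas 2.3.3 and NumPy 2.4.6 and checked on simulated positions. Named are the 8 genes, pathway genes with an anchor within 50 kb or a boundary within 1 kb, and genes that place a feature. All results are descriptions, without tests. Alternatives changed the windows, the least loop value and boundary strength, and the edge used. Promoter and protein sequences were not analysed here.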

Additional observations from a re-analysis of the deposited data

How the results depend on the processing

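No paired analysis was possible because the lists have no column per sample, and for the same reason no sample could be left out. With a window of 100 kb in place of 50 kb, 5 of the 8 genes had an anchor nearby. The loops numbered 4 in place of 1. Of the 26 other pathway genes, 14 had an anchor within 100 kb, against 42.2% of all genes. With loops below the median value left out, 4 of those 26 had an anchor within 50 kb, against 12.2% of all genes. A gene end inside the anchor left 0 of the 26 and 2 kb gave 2 in place of 1. A whole anchor inside the gene left 0 of the 8. A gene end inside the boundary bin left 1 of the 8 (vn) in place of 3. For these alternative rules on gene ends and whole anchors, the share of all genes is not given here. With boundaries of at least the median strength, 2 of 26 pathway genes had one at a gene end, in place of 10, the interval of rho, ru and stet grew to 202.0 kb, that of spi to 227.6 kb, of Egfr to 197.6 kb and of aos to 235.6 kb, and the median over the 8 to 202.0 kb. Boundaries inside genes, used as flanks, gave a median of 164.2 kb. With the protease locus counted once, an alternative chosen after seeing the data, the median interval was 118.8 kb in place of 170.8 kb and the median distance to an anchor 282.6 kb in place of 56.9 kb. With 5 kb or 20 kb allowed, 1 loop joined members, in place of 0. The rho loop ranked 7 outside the centromere-proximal 10% of each arm and 20 by APScoreAvg. The other alternatives gave the same counts, apart from 7 in place of 9 pathway genes within 25 kb. Of all genes, 15.9% had an anchor within 25 kb.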
